A study of Mus musculus with 8 samples.

Results

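Retinoic acid is the vitamin A derivative that patterns the front-to-back axis of the early heart tube, and the 10 genes described here make, break down, bind and sense it, or encode the related COUP-TF receptors. They were chosen by name: Aldh1a2, Cyp26b1, Crabp1, Crabp2, Rara, Rarb, Rarg, Rxra, Nr2f1 and Nr2f2, out of 27827 gene names as the array files give them. All 10 were found, with 17 probes. The RNA came from hearts of minKGFP transgenic mouse embryos at mid-gestation (E10.5), a line in which green fluorescent protein reports minK, the potassium channel subunit encoded by Kcne1. Every sample carried this transgene. The hearts were dissociated with pancreatin and collagenase, and the cells were sorted by brightness into a GFP-high group, labelled as cells of the cardiac conduction system, and a GFP-low group, labelled as chamber myocardium. Each group had 4 biological replicates and each replicate 1 array, so the number of arrays limits the precision. The labels do not say how many embryos went into a replicate, and the sort was on fluorescence alone.

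Aldh1a2 encodes the enzyme that makes most retinoic acid in the early embryo, and the Cyp26 enzymes degrade it. Inside the cell Crabp1 and Crabp2 bind it, and it acts by way of heterodimers of a retinoic acid receptor (Rara, Rarb or Rarg) and a retinoid X receptor (Rxra and its relatives), which sit on paired repeats in the DNA of target genes. Nr2f1 (COUP-TFI) and Nr2f2 (COUP-TFII) are orphan nuclear receptors that can bind similar repeats. In the embryonic heart Nr2f2 is known as a marker and regulator of atrial as opposed to ventricular muscle, and outside muscle it is known from venous endothelium and mesenchyme.

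The clearest differences among the 10 genes lay in the COUP-TF pair, whose signals were lower on every GFP-high array than on any GFP-low array, with log2 differences of -2.00 ± 0.47 for Nr2f1 and -1.63 ± 0.39 for Nr2f2 (SE, n = 4 per group). Rxra was higher on every GFP-high array than on any GFP-low array, with a difference of the means of 0.65 ± 0.23 (SE). None of the 3 passed the adjusted threshold over the 12875 genes tested. The retinoic acid receptors and Crabp1 had positive or near-zero differences with overlapping groups. Aldh1a2 was dim, and Cyp26b1 and Crabp2 were not well above background on any array.

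Signals are log2 intensities minus the 75th percentile of their array, so 0 is the signal that 75% of the array's spots do not exceed. A probe was counted as measured on an array where the scanner software flagged it as well above background, and a gene was tested where its brightest probe was so flagged on at least 4 of the 8 arrays. Differences are GFP-high minus GFP-low, and the test was limma's moderated test with Benjamini-Hochberg adjustment over all genes tested. Signals of different probes depend on the probe as well as on the RNA. Outside the summed signals of marker lists, which mix probes, no gene's level is set against another's.

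Between 36.3% and 50.7% of an array's spots were well above background. Arrays of 1 group correlated at 0.869 to 0.929 over the brightest probes of the genes tested, which leaves out dim genes. Between the groups the range was 0.820 to 0.927. Of the 12875 genes tested, 18 (0.14%) passed an adjusted p of 0.05, and the median difference was 0.16. As the check of the sort, the 2 probes of Kcne1 were higher in GFP-high by 1.29 and 2.83, with no overlap between the groups. The probe with the larger difference passed in the fit over probes (limma, adjusted p = 0.0310), while the other had an adjusted p of 0.225. That other probe is the brighter one and stood for Kcne1 in the fit over genes. The pass was therefore not in the gene fit used for the 10 genes. All 10 cardiomyocyte markers of a fixed list (such as Tnnt2 and Actc1) were measured in both groups, with summed signals of 2822 to 4376 times the 75th percentile in GFP-high and 1926 to 3475 times in GFP-low. The arrays came from 2 slides: replicates 1 and 2 of both groups shared slide 1, replicates 3 and 4 shared slide 2, and slide and scan coincided.

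Of the 10 genes, 8 were tested. None passed the adjusted threshold, against 0.14% of all genes tested (0.0699% in each direction). At an unadjusted limma p under 0.05, 1 was higher (Rxra) and 2 were lower (Nr2f1 and Nr2f2), against 14.3% of all tested genes, 7.94% higher and 6.38% lower. The groups did not overlap for the same 3 genes, with GFP-high above in 1 and below in 2, against 8.94% of all tested genes, 5.86% above and 3.08% below. The median difference of the 8 was 0.42, beside 0.16 for all genes tested. Of the 8, 5 were positive, against 7993 of all 12875. The median of the 8 was 0.19 under quantile normalization and 0.63 over the genes measured on all 8 arrays. It was 0.19 without GFP-high replicate 2, and 0.76, 0.10 and 0.27 without GFP-low replicates 1, 3 and 4. With no gene past the threshold, these counts describe the 8 genes and do not set them apart from the rest.

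**Figure D1:**
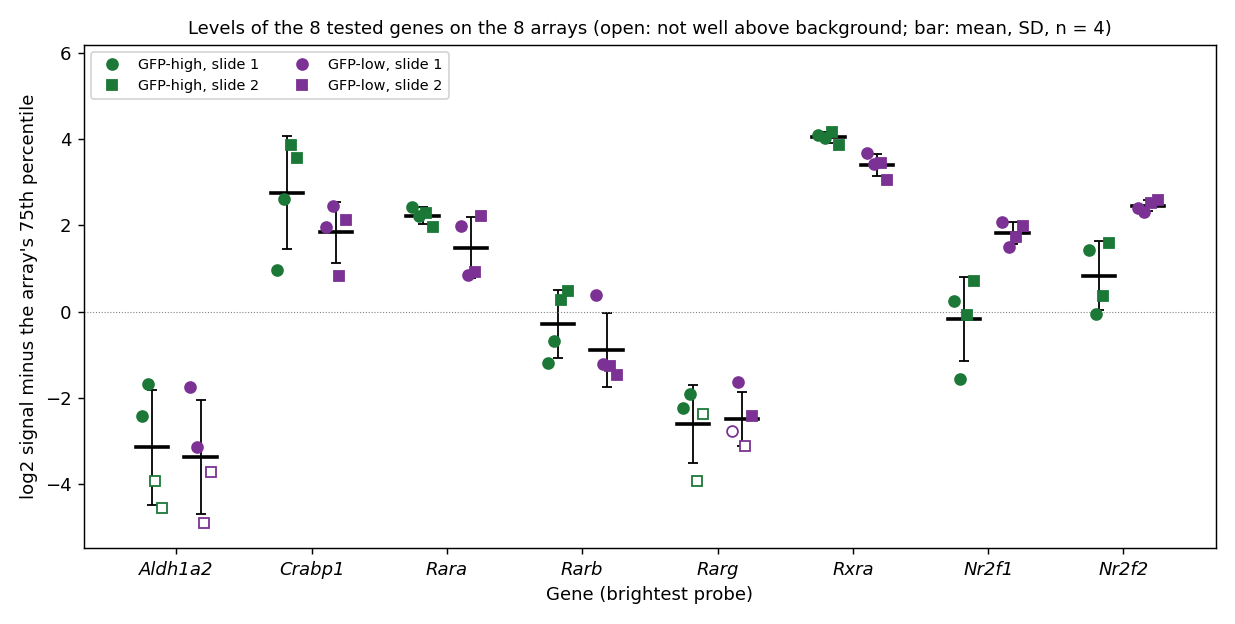
Signal of the brightest probe of each of the 8 tested genes on the 8 arrays (y axis: log2 signal minus the 75th percentile of the array; green, GFP-high; purple, GFP-low; circles, slide 1; squares, slide 2; open symbols, not well above background; bars, mean and SD, n = 4). GFP-high lay below GFP-low on every array for Nr2f1 and Nr2f2 and above it for Rxra, and the groups overlapped for the other 5 genes.

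Nr2f1 was read by 1 probe, at chr13:78328489-78328548 on the minus strand of mouse build mm9, well above background on all 8 arrays. Its GFP-high signals were 0.25, -1.56, -0.09 and 0.70 in replicates 1 to 4. Its GFP-low signals were 2.08, 1.50, 1.74 and 1.99. The GFP-low arrays lay close together, and the GFP-high arrays were spread more widely below all of them. The means were -0.17 ± 0.98 and 1.83 ± 0.26 (SD, n = 4 each), a difference of -2.00 with a 95% interval of -3.07 to -0.94, or 4.01-fold lower in GFP-high (limma, unadjusted p = 0.00231, adjusted p = 0.166). Relative to the median gene the difference was -2.16.

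Nr2f2 was read by 3 probes, and the brightest, at chr7:77498375-77498434 (mm9, minus strand), was well above background on all 8 arrays. In GFP-high it read 1.43, -0.06, 0.37 and 1.58 in replicates 1 to 4. In GFP-low it read 2.40, 2.31, 2.51 and 2.60, which spanned only a small part of the range seen in GFP-high. The means were 0.83 ± 0.80 and 2.46 ± 0.13 (SD, n = 4 each), a difference of -1.63 with a 95% interval of -2.52 to -0.73, or 3.09-fold lower in GFP-high (limma, unadjusted p = 0.00282, adjusted p = 0.174). In bulk RNA, fewer cells that express a gene and less of its RNA per cell cannot be told apart.

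The COUP-TF genes shared their order of GFP-high arrays, with replicate 2 the lowest, then replicates 3, 1 and 4. Over the 8 arrays their signals correlated at r = 0.966, as a description of arrays that also share group and slide. Both differences were present on each slide: that of Nr2f1 was -2.45 within slide 1 and -1.56 within slide 2, and that of Nr2f2 was -1.68 and -1.58. With slide as a term the adjusted p was 0.163 for Nr2f1 and 0.187 for Nr2f2. In absolute size the differences exceeded those of 96.6% (Nr2f1) and 93.8% (Nr2f2) of the genes tested. Under 20 alternative settings the difference of Nr2f1 ran from -2.29 to -1.31, with limma adjusted p between 0.0957 and 0.338. Several of these settings, such as slide as a term, leave the difference unchanged by design. The smallest size of the Nr2f1 difference came from another background correction (normexp), at -1.31 with an adjusted p of 0.0977.

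The other probes of Nr2f2 were dim, and neither showed the difference. Probe 2, at chr7:77499447-77499506, lies 1072 bases from the brightest probe and was designed on another transcript record. It was well above background on all 4 arrays of slide 1 and on no array of slide 2, with GFP-high signals of -2.21, -2.74, -3.95 and -4.57 in replicates 1 to 4. Its GFP-low signals were -1.73, -3.12, -3.93 and -4.99. The slides differed by 1.90 and the groups by 0.07 ± 0.76 (SE; limma over probes, adjusted p = 0.973). Probe 3 stayed under that mark on all 8 arrays. The mean over the 3 probes, which averages in the dim ones, gave a difference for Nr2f2 of -0.41 (limma, adjusted p = 0.556). The lower signal of Nr2f2 thus rests on 1 probe. Over the other 19 settings, several of which leave it unchanged by design, the Nr2f2 difference kept its sign at -1.88 to -1.33.

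The probes that carried the COUP-TF differences are 60 bases long and rich in A and T. The first 30 bases of each are shown 5′ to 3′, as the deposited array files give them, to set the bright Nr2f2 probe beside its dim neighbour.
Nr2f1: attttgtaaaatactagtgtttattttcat
Nr2f2, probe 1: tgtatactgtaaaagttataataactgaac
Nr2f2, probe 2: aagaaaaaggcaaaagactggtttgtttgc
The GC content of the whole probe was 21.7% for Nr2f1 and 30% for probes 1 and 2 of Nr2f2, a bright and a dim one. The files give these coordinates with no exon annotation, so whether a probe lies in coding sequence or a UTR is not stated here.

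**Figure D2:**
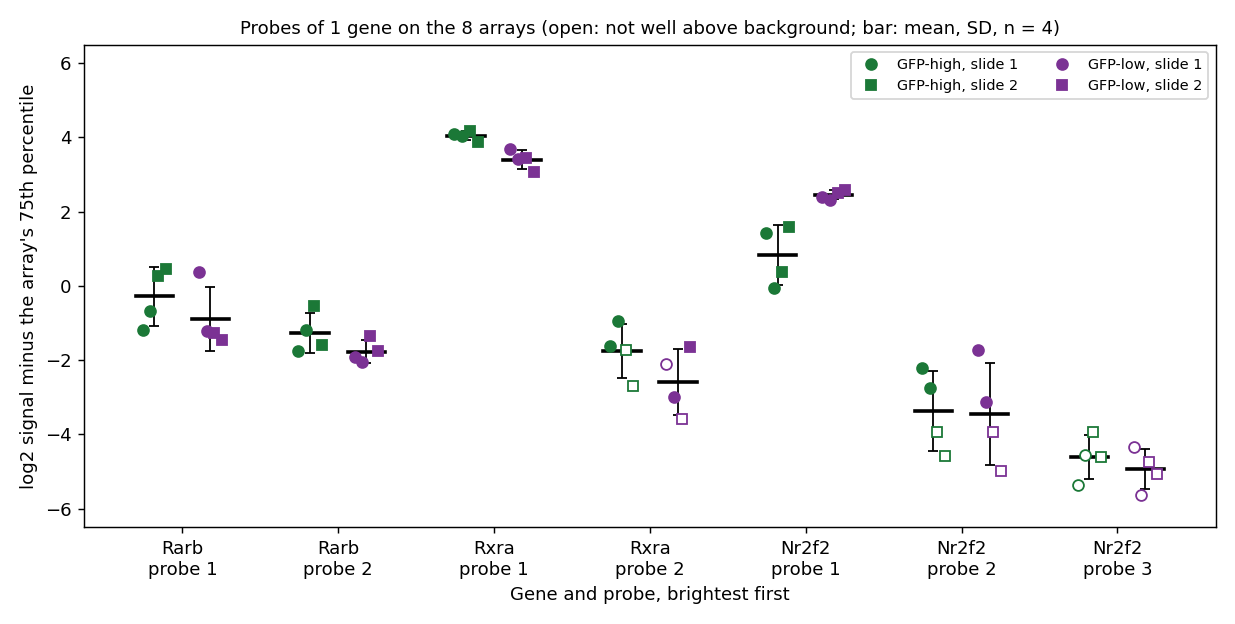
Signals of all probes of Rarb, Rxra and Nr2f2 on the 8 arrays (y axis: log2 signal minus the 75th percentile; green, GFP-high; purple, GFP-low; circles, slide 1; squares, slide 2; open symbols, not well above background; bars, mean and SD, n = 4). The lower GFP-high signal of Nr2f2 is seen in probe 1 only, and probe 2 is well above background on slide 1 only.

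Markers of other cell types in which COUP-TF genes are known moved as follows. The summed signal of 9 mesenchyme markers was 4.26 to 9.01 times the 75th percentile in GFP-high and 9.34 to 15.6 times in GFP-low, so it was lower in GFP-high on every array, as were Nr2f1 and Nr2f2. Tbx20, which the myocardium also expresses, gave 37.5% to 80.3% of that sum on an array. Without Tbx20 the sums were 1.46 to 3.72 and 1.90 to 9.73 and overlapped. Of the 9 markers 4 were tested and none passed, with 1 of the 4 positive and a median of -0.87. The part of mesenchyme in the COUP-TF differences was not tested. The 4 venous endothelium markers, with summed signals of 3.01 to 8.42 in GFP-high and 3.88 to 6.41 in GFP-low, overlapped. So did the 11 markers of endothelium and endocardium, at 1.93 to 6.56 and 2.12 to 9.08. Of these 11, the defining genes Pecam1 and Tek were dim on all 8 arrays, Flt1 and Nfatc1 were well above background on all 8, and Cdh5 and Kdr on 2 GFP-high and 3 GFP-low arrays each. Npr3, an endocardial marker, was above background on 3 GFP-low arrays and 0 GFP-high arrays, and its GFP-high signals (-5.38, -5.35, -3.97 and -4.66) lay below all its GFP-low signals (-1.43, -3.53, -2.69 and -1.98), the same direction as Nr2f1 and Nr2f2. Npr3 was too dim to be tested. Plvap was above background on 2 GFP-low arrays, and Tie1 and Emcn on 1 each, against 0 GFP-high arrays, with overlapping groups. They were not tested either. By that count Cd34 went the other way, measured on all 4 arrays of GFP-high and 2 of those of GFP-low. Its highest signals were nonetheless in GFP-low, at 1.58 and 1.33 in replicates 1 and 3, against at most 0.47 in GFP-high. Cd34 differed by 1.30 ± 1.66 (SE), with overlapping groups. Of the 11 markers 5 were tested and none passed, with 2 of the 5 positive and a median of -0.03. The part of endocardial cells in the COUP-TF differences was not tested.

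Of the genes that supply and bind the ligand, Aldh1a2 (chr9:71143931-71143990, mm9, plus strand) was measured on slide 1 only. Its GFP-high signals were -2.43, -1.68, -3.94 and -4.58 in replicates 1 to 4, and its GFP-low signals were -1.74, -3.14, -4.91 and -3.72. The arrays of slide 1 were higher than those of slide 2 by 2.04 on average, and the groups overlapped on both slides. The difference was 0.22 ± 0.81 (SE), with a 95% interval of -1.62 to 2.07 (limma, adjusted p = 0.912), so a GFP-high to GFP-low ratio anywhere from 0.324 to 4.20 lies within the interval. It turned to -0.12 under quantile normalization and ran from -0.29 to 0.77 with 1 array left out. Cyp26b1 (chr6:84521952-84522011), the degrading enzyme of the list, and Crabp2 (chr3:87752682-87752741), a carrier that delivers retinoic acid to its receptors, were not well above background on any of the 8 arrays, so no difference is given.

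Crabp1, the other cellular carrier, was well above background on all 8 arrays (chr9:54616192-54616251, mm9, plus strand). Its GFP-high signals were 0.96, 2.62, 3.87 and 3.58, and its GFP-low signals 1.97, 2.45, 0.82 and 2.12. Replicates 3 and 4 of GFP-high were the highest of all, and replicate 1 of GFP-high was the second lowest. The difference was 0.92 ± 0.66 (SE; 95% interval -0.58 to 2.41; limma, adjusted p = 0.533). Its sign differed between the slides, at -0.42 within slide 1 and 2.25 within slide 2, and the difference between slides was not tested. With 1 array left out it ran from 0.54 (without GFP-high replicate 3) to 1.52 (without GFP-high replicate 1). The 60 bases of the probe hold no stop codon in 2 of their reading frames, which does not place them in coding sequence:
Crabp1: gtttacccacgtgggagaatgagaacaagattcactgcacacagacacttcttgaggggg

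Among the receptors, Rxra, the common partner of the retinoic acid receptors, had the smallest spread. Its brightest probe (chr2:27618411-27618470, mm9, plus strand) read 4.11, 4.03, 4.18 and 3.88 in GFP-high. It read 3.68, 3.42, 3.44 and 3.06 in GFP-low. Every GFP-high array lay above every GFP-low array, on slide 1 by 0.52 and on slide 2 by 0.78 between the means. The group means were 4.05 ± 0.13 and 3.40 ± 0.26 (SD, n = 4 each), a difference of 0.65 with a 95% interval of 0.13 to 1.17, or 1.57-fold (limma, adjusted p = 0.278). With slide as a term the adjusted p was 0.266, and over the 20 alternatives it lay between 0.119 and 0.628. The second probe (chr2:27615316-27615375) was well above background on 2 arrays of each group and gave 0.83 ± 0.52 (SE; limma over probes, adjusted p = 0.492), with overlapping groups. Of the marker lists, the summed signal of 6 leukocyte genes was also higher on every GFP-high array, at 10.9 to 15.3 times the 75th percentile against 3.56 to 5.99 times, and most of it was Lyz2, the lysozyme of macrophages. Cd68, another macrophage gene, was measured on all 4 arrays of GFP-high and 3 of those of GFP-low. It differed by 0.94 ± 0.68 (SE) with overlapping groups. The defining genes Ptprc and Csf1r were at background on all 8 arrays. Tyrobp and Fcer1g went the other way, each above background on 1 GFP-low array and 0 GFP-high arrays. The part of leukocytes in the Rxra difference was not tested.

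Rara, the most widely expressed retinoic acid receptor (chr11:98831859-98831918, mm9, plus strand), read 2.44, 2.22, 2.30 and 1.96 in GFP-high. In GFP-low it read 1.98, 0.85, 0.91 and 2.21, a pair of low and a pair of high arrays with 1 of each on each slide. The means were 2.23 ± 0.20 and 1.49 ± 0.71 (SD, n = 4 each). The difference was 0.74 ± 0.37 (SE; 95% interval -0.09 to 1.58; limma, adjusted p = 0.386), with 0.91 within slide 1 and 0.57 within slide 2.
Rara: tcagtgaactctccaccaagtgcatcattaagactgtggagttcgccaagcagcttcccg

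Rarb is both a receptor and a textbook target of retinoic acid, and its brightest probe was spotted 10 times on each array (chr14:17263511-17263570, mm9, minus strand). Its GFP-high signals were -1.20, -0.67, 0.28 and 0.47, and its GFP-low signals were 0.38, -1.23, -1.26 and -1.46. GFP-low replicate 1 stood apart from the other GFP-low arrays, and of all 8 arrays only GFP-high replicate 4 was higher. The difference was 0.61 ± 0.53 (SE; 95% interval -0.59 to 1.81; limma, adjusted p = 0.596), at -0.51 within slide 1 and 1.74 within slide 2. Without GFP-low replicate 1 it was 1.04 and without GFP-high replicate 4 it was 0.36.

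The other Rarb probe has its bases at chr14:17381032-17407740, a span of 26709 bases that a 60-base probe can only cover across a splice junction. It was well above background on all 8 arrays and read -1.75, -1.20, -0.55 and -1.59 in GFP-high and -1.91, -2.06, -1.34 and -1.77 in GFP-low. The difference was 0.50 ± 0.33 (SE; limma over probes, adjusted p = 0.521), at 0.51 within slide 1 and 0.48 within slide 2. GFP-low replicate 1, the highest GFP-low array on the first probe, was the second lowest of the 4 on this one.
Rarb, splice-spanning: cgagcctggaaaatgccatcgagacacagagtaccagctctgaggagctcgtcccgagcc

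Rarg had 4 probes and was dim on all of them. Its brightest probe (bases at chr15:102066621-102069261, mm9, minus strand, a span of 2641 bases) was well above background on GFP-high replicates 1 and 2 and GFP-low replicates 2 and 4. It gave a difference of -0.12 ± 0.50 (SE; 95% interval -1.27 to 1.02; limma, adjusted p = 0.923). The sign turned under normexp (0.24) and with the mean over probes (0.32). Another probe (chr15:102066309-102066368) was above background on slide 1 only and gave -0.50 (limma over probes, adjusted p = 0.642). The remaining pair was above background on GFP-high replicate 1 only, and no fold is given for it.

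**Figure D3:**
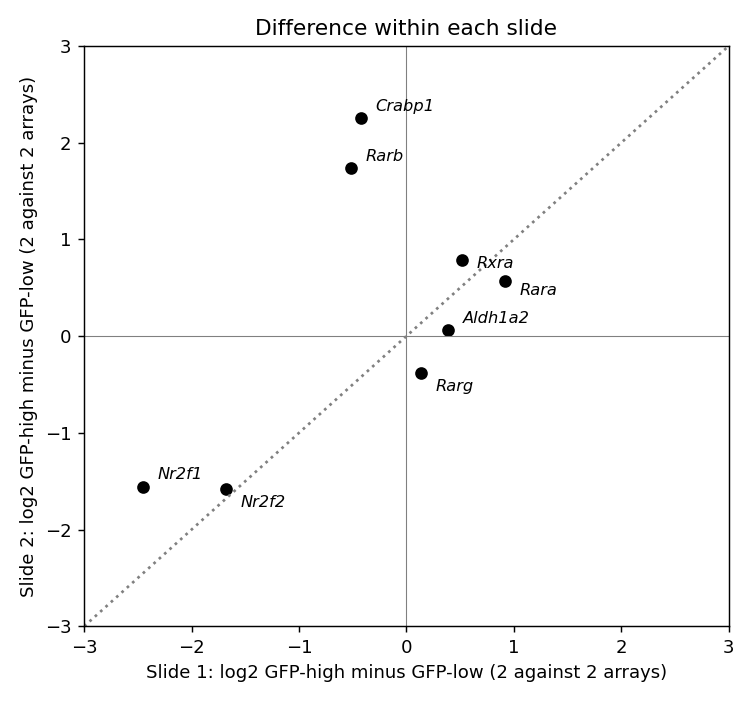
Difference of each of the 8 tested genes within slide 1 (x axis) and within slide 2 (y axis), each from 2 GFP-high and 2 GFP-low arrays, in log2 units (dotted line: equal differences). Nr2f1, Nr2f2, Rxra, Rara and Aldh1a2 have the same sign on both slides, while Crabp1, Rarb and Rarg change sign.

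Because Rarb is known to be switched on by retinoic acid by way of a direct repeat in its promoter, the promoters of the listed genes were searched for such repeats. The windows were those of RefSeq on assembly GRCm38.p6, from 250 bases before to 50 bases after each start, with at least 1 window for 9 of the 10 genes (15 windows in all). The repeat searched was NGNTCANNNNNNGNTCA, with 5 bases between its parts (DR5), on both strands. It was found in 1 of the 15 windows, that of Rarb, and in 283 of all 32851 windows (0.862%). The closer-spaced repeats NGNTCANNNGNTCA (DR2, in 1.11% of all windows) and NGNTCANNGNTCA (DR1, in 1.25%) were in none of the 15. The 250 bases before the start of Rarb, at chr14:16575477-16575726 (GRCm38.p6, minus strand), are shown with the repeat in capitals, at positions -53 to -37 from the start.
Rarb promoter: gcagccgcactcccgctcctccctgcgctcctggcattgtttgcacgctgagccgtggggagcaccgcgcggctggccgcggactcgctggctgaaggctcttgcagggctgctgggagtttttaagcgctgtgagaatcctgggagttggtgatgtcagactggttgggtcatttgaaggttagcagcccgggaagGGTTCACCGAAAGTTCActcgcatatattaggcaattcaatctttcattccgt
The match describes letters in this window. The arrays measured RNA and give no value of binding to it.

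A fixed list of 40 other genes of the retinoid pathway gave the wider picture. Of these 39 were named on the array and 22 were tested, none passed the adjusted threshold, and at an unadjusted p under 0.05 1 was higher and 3 were lower, against 7.94% and 6.38% of all genes tested. The median difference was -0.04, below the 0.16 of all genes tested, and 10 of the 22 were positive, against 7993 of all 12875.

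Of the 13 genes that supply vitamin A or turn it into retinaldehyde and on to retinoic acid, 6 were tested and none passed. Rbp4, the plasma carrier of retinol, was above background on 3 GFP-high arrays and 1 GFP-low array. It read -0.82, -1.26, -2.03 and -1.20 in GFP-high and 0.03, -5.43, -4.60 and -4.92 in GFP-low, so that GFP-low replicate 1 was the highest array of all. The difference was 2.40 ± 1.10 (SE; limma, adjusted p = 0.358). Dhrs3, which reduces retinaldehyde back to retinol, gave 0.79 ± 0.38 (adjusted p = 0.375), and Rdh10, the retinol dehydrogenase that starts the synthesis, gave 0.60 ± 0.60. Of the 3 genes of breakdown and binding only Fabp5, a fatty acid carrier that can also bind retinoic acid, was tested, at 0.49 ± 0.30 (adjusted p = 0.469).

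Of 12 other receptors and cofactors 10 were tested and none passed, with a median of 0.09 and 5 of the 10 positive. The coactivator gene Ncoa2 gave -1.46 ± 0.44 (SE; limma, adjusted p = 0.236) and was above background on only 1 GFP-high and 3 GFP-low arrays. Its difference shrank to -0.36 with the mean over its probes, -0.19 with a common floor and -0.17 under normexp. Med1, a subunit of the Mediator complex that nuclear receptors contact, gave -0.90 ± 0.41 (adjusted p = 0.358). The relatives of the listed receptors, named here because of their families and outside the naming rule, gave 0.66 ± 0.35 for Rxrb, 1.22 ± 0.79 for Rxrg (above background on 3 GFP-high arrays and 1 GFP-low array) and 0.54 ± 0.46 for Nr2f6, a further COUP-TF relative. None of these was negative, unlike Nr2f1 and Nr2f2, and none passed.

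Of 12 known targets of retinoic acid 5 were tested and none passed, with a median of -0.40 and 1 of the 5 positive. Hoxb1, Hoxb4 and Cdx1, which respond directly to retinoic acid in the early embryo, were not well above background on any array. Tbx5, a transcription factor of the atria and left ventricle, read 0.72, -0.73, 0.73 and 0.58 in GFP-high and 1.66, 1.33, 1.26 and 1.34 in GFP-low. Every GFP-high array was below every GFP-low array, and GFP-high replicate 2 was the lowest, as it was for Nr2f1 and Nr2f2. The difference was -1.07 ± 0.36 (SE; limma, adjusted p = 0.265), and it shrank to -0.16 (adjusted p = 0.841) with the mean over its probes. Meis1, a homeobox partner of Hox proteins, gave -0.69 ± 0.30 (adjusted p = 0.348), and Fgf8, a growth factor that retinoic acid restrains at the back of the heart field, gave 0.23 ± 0.27 (adjusted p = 0.706).

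**Figure D4:**
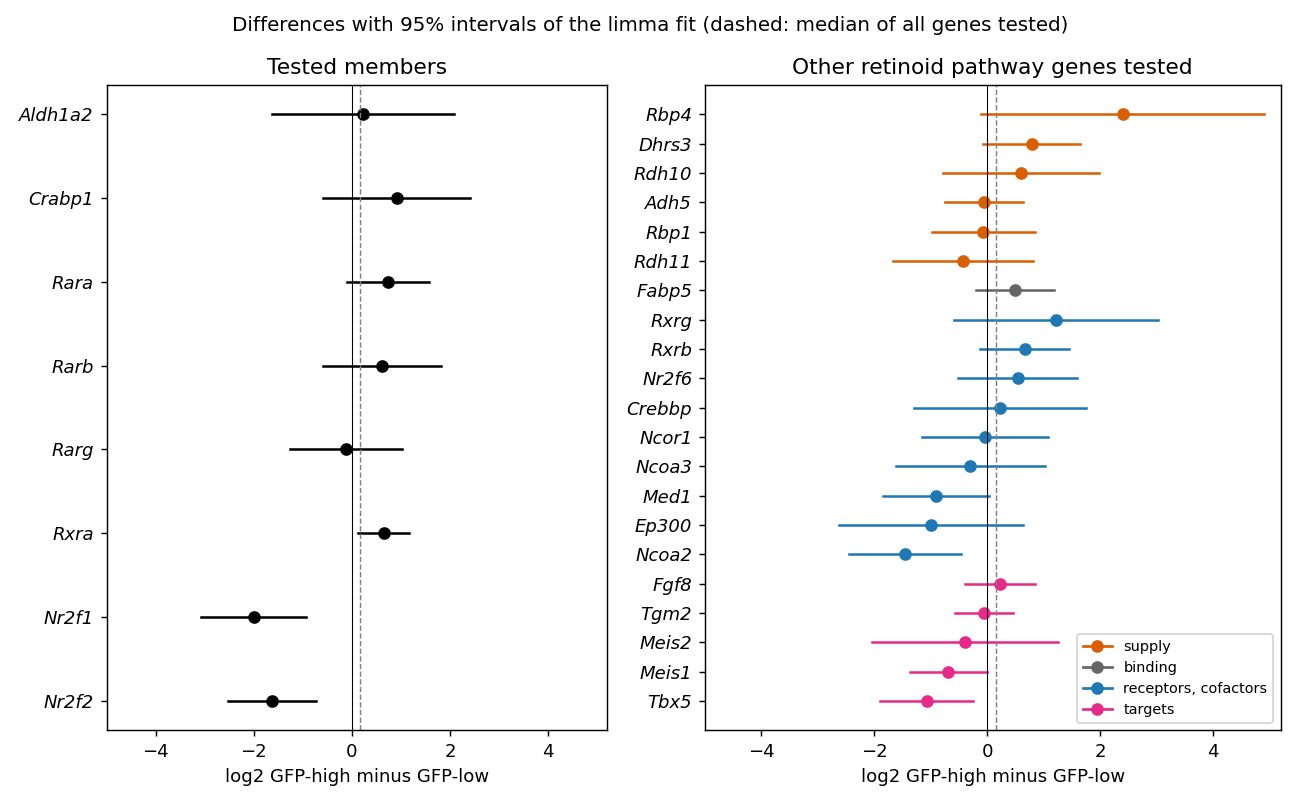
Difference between GFP-high and GFP-low (x axis, log2) with the 95% interval of the limma fit for the 8 tested genes (left) and other retinoid pathway genes tested (right, coloured by role); the dashed line is the median of all genes tested, 0.16. On the left the intervals of Nr2f1, Nr2f2 and Rxra exclude 0 before adjustment, on the right those of Ncoa2, Tbx5 and Meis1, and no gene shown passed the adjusted threshold.

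Since Nr2f2 is known for atrial identity, chamber genes were read beside it. All 12 genes of a fixed atrial list were tested and none passed, with a median of 0.08 and 7 of the 12 positive, and its members went both ways. Sln, the small regulator of the calcium pump that marks atrial muscle, was higher on every GFP-high array than on any GFP-low array. The difference of its means was 2.10 ± 0.37 (SE; limma, adjusted p = 0.104), and 1.16 (limma, adjusted p = 0.159) with the mean over its probes. Nppa, the natriuretic peptide of atria and trabeculae, was lower on every GFP-high array, with a difference of -0.89 ± 0.22 (adjusted p = 0.186). All 10 genes of a ventricular list were tested and none passed, with a median of 0.35 and 8 of the 10 positive. Over all genes tested the median was 0.16 and 7993 of 12875 were positive. Hand1, a transcription factor of the outer curvature and left ventricle, gave -1.33 ± 0.28 (adjusted p = 0.145). Lbh, a cofactor of cardiac transcription, gave 0.68 ± 0.26 (adjusted p = 0.313), and Mybpc3, myosin-binding protein C, gave 0.46 ± 0.22 (adjusted p = 0.367). The groups did not overlap for Hand1 (GFP-high below) or for Lbh and Mybpc3 (GFP-high above). Over all genes tested, 3.08% had GFP-high below and 5.86% above without overlap.

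Genes with the most similar signals over the 8 arrays were read off by Pearson's r among the 12875 tested genes, as a description of arrays that share group and slide. Tab2, an adaptor of TAK1 kinase signalling, was the closest to both COUP-TF genes, at r = 0.977 for Nr2f1 and 0.986 for Nr2f2, with a difference of its own of -2.64 (limma, adjusted p = 0.174). Nr2f2 was the next closest to Nr2f1, and Twistnb (r = 0.969, difference -2.84, adjusted p = 0.159) the next to Nr2f2. In all, 25 genes had r over 0.9 with Nr2f1 and 22 with Nr2f2.

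For Rxra the closest named gene was Prss37 at r = 0.983, and 85 genes exceeded 0.9. Its r with Nr2f1 was -0.77 and with Nr2f2 -0.82. Rara was closest to Tmed2 (0.975) and Lhfpl2 (0.970), and Rarb to 1700029F12Rik (0.967) and Zfp629 (0.953). Crabp1 was closest to Dgat2 (0.945) and only 4 genes exceeded 0.9 with it. The dim genes Aldh1a2 and Rarg were closest to Med16 (0.982) and Pmepa1 (0.984), both with differences near 0, and Rarg had 186 genes over 0.9.

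Across the 17 probes of the 10 genes, 7 were well above background on all 8 arrays, 7 on some and 3 on none. Of the 7 in between, 5 were so flagged on slide 1 only, and 3 of them, 1 each of Aldh1a2, Rarg and Nr2f2, on all 4 arrays of slide 1 and none of slide 2. These 3 probes were picked by their flags on the slides, so their larger difference between slides than between groups was built in by that choice. Each slide held both groups equally. Of all spots, 40.5% to 50.7% were well above background on arrays of slide 1 and 36.3% to 45.6% on those of slide 2. The share of slide 1-only probes over the whole array was not computed.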

How the data were processed

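RNA of 4 GFP-high and 4 GFP-low samples had been amplified, labelled with 1 dye and read on 8 Agilent arrays. The deposited scanner files hold an intensity per spot on a linear scale, and per the submitters' processing notes they come from Agilent Feature Extraction 10.5.1.1. The authors' whole-series table of intensity values is identical to the scanner signals. Probe coordinates are those of the file headers' design, on mm9. Log2 of the processed signal minus the 75th percentile of the non-control spots of each array was computed, outlier-flagged and control spots were left out, and spots of a probe were averaged. Of 41174 probes, 33070 had a current symbol in the RefSeq table of GRCm38.p6, used for names only; the brightest probe stood for each of the 27729 updated names. Genes were fitted with limma 3.58.1 in R 4.3.3 with group as the only term, and 14854 dim genes were not tested. Other probes of a gene came from the same fit over 18473 probes. The fit was tested on simulated data. The genes and lists were chosen with earlier results of these data known. Genes named beside the 10 are any list gene that passes, the 3 tested genes of each list with the smallest p, the 2 genes with the highest r for each tested gene, and Kcne1. Alternatives covered background correction, scaling, filters, probe summary, variance model, slide, replicate number, source of values and each array left out. A few items of the lists are not reported here.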

Additional observations from a re-analysis of the deposited data

Results flagged for a closer look

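For Rarb, the signal of GFP-low replicate 1 was 0.38, while the other GFP-low arrays lay between -1.46 and -1.23. Its gap to the nearest of them was 0.872 of the range of the 4 arrays, above Dixon's 95% critical value for 4 samples. In all, 16 groups of 4 arrays (8 genes in both groups) were examined, and chance places about 1 in 20 such groups over this value. On the splice-spanning probe of Rarb the same array was not apart from its group, at -1.91.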

How the results depend on the processing

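No retinoid or COUP-TF gene passed the adjusted threshold under any of the 20 alternatives (2 to 4 at an unadjusted limma p under 0.05), nor did any gene of the pathway and chamber lists (5 to 14 unadjusted). The count over all genes, 18 (9 higher and 9 lower), was 9 with quantile normalization, 0 with median scaling (1596 unadjusted), 4 with the percentile over measured probes, 3 with no filter, 11 (10 higher, 1 lower) with probes measured on all 8 arrays, 45 (33 higher, 12 lower) with a common floor, 11 (3 higher, 8 lower) with slide as a block, 0 with the replicate block (2381 unadjusted), and 0 to 7 with 1 array left out. Normexp split its 20 calls into 14 higher and 6 lower. The cause of these shifts was not tested. Other scalings and the other background correction put the median difference of all genes at 0.06 to 0.16. Aldh1a2 turned to -0.12 under quantile normalization and, with 1 array left out, ran from -0.29 to 0.77, negative without GFP-high replicate 1 (-0.02) or 2 (-0.27) or GFP-low replicate 3. Rarg turned to 0.24 under normexp, 0.32 with the mean over probes, 0.32 without GFP-high replicate 3 and 0.16 without GFP-low replicate 2, and ran from -0.35 to 0.32 with 1 array left out. The other 6 tested genes kept their sign under all 20. Several of the 20 cannot change a difference, such as the source of values, the variance model, and the slide and replicate terms. Whether equal replicate numbers pair the samples is not stated: deviations of same-numbered arrays correlated at 0.114, 0.153, 0.303 and 0.0647. Each GFP-high array correlated best with the GFP-low array of its own number. Seen from GFP-low, replicates 1, 2 and 3 did so too, while replicate 4 correlated best with GFP-high replicate 1 (0.0779). With the replicate block the adjusted p was 0.160 for Nr2f1, 0.179 for Nr2f2 and 0.221 for Rxra. Signal over background limits Aldh1a2, Cyp26b1, Crabp2 and Rarg.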
